A study of Mus musculus with 6 samples.

Results

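The cytosolic ribosomal proteins are the proteins of the 2 subunits of the ribosome that translates mRNA outside the mitochondria. Members were chosen by name alone, as genes of the authors' deposited table whose mouse symbol begins with Rpl or Rps and a number, together with Rplp0, Rplp1, Rplp2 and Rpsa. Kinases named Rps6k and entries named as pseudogenes were left out. The rule found 88 members among 19267 genes of that table. No measured value entered the rule, though it was chosen with earlier results of these data known. Of the members, 76 are standard proteins of the subunits, 45 of the large and 31 of the small subunit. Another 11 are paralogs or retrocopies, which are later copies of a standard gene. The last, Rps19bp1, encodes a protein that binds Rps19 and is no ribosomal protein, and it entered through its name.

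RNA came from mice carrying a GFP reporter of smooth muscle actin (SMA), the Acta2 product of contractile cells. Cells without CD45, found on blood-derived cells, and without CD31, found on endothelium, were sorted by GFP. Skin cells had low GFP and came from the dermis, and the labels call them fibroblast-like. Wound cells had high GFP, were taken from wounds 7 days after injury, and are labelled myofibroblast, the contractile cell of healing tissue. Both groups carried the reporter, so the comparison joins tissue, injury and GFP level, which cannot be told apart. The strain, age and number of mice behind each array are not given in the sources used here.

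Each group had 3 Agilent 1-colour arrays. Array design 026655 held replicates 1 and 2 from skin and from wounds, and design 028005 the remaining pair, named replicate 3 here because the labels give it no number. Between 64.4% and 72.6% of spots were well above background on an array, and 0 spots were saturated. Values are log2 signals relative to the 75th percentile of the array, so a difference of 1 is 2-fold. They follow the share of a transcript in the labelled RNA, and the amount of RNA per cell was not measured. Where separate animals are not stated, the p-values cover only the spread between these samples. Acta2, the gene behind the sort, was 4.70 ± 0.16 (SE, 3 arrays per group) higher on the log2 scale in wound cells (limma adjusted p = 5.19e-05), which matches the GFP labels.

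Ribosomal protein mRNAs are among the most abundant of a cell, and their products are needed in equal numbers, since most subunits hold a single copy of each. Most of these mRNAs begin with a cytosine followed by a run of pyrimidines, the terminal oligopyrimidine start. Through that start the growth kinase complex mTORC1 and the RNA-binding protein LARP1 act on their translation and stability, so the amount of mRNA alone does not give the rate at which ribosomes are made. Myofibroblasts are known for secreting collagen and other matrix proteins, which draws on the translation machinery. Some paralogs replace the standard protein in ribosomes of particular tissues or states.

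The 76 standard genes lay close to equal levels in wound and skin cells. In limma, with Benjamini-Hochberg adjustment over the 16719 genes tested, 0 of the 76 were higher and 0 were lower in wound cells at an adjusted p under 0.05. Of all genes tested, 34.0% passed, 18.5% as higher and 15.6% as lower. At an unadjusted p under 0.05 there were 2 standard genes, Rpl13 and Rpl35a, against 44.3% of all genes. The median log2 difference, wound minus skin, was -0.13, with quartiles of -0.22 and -0.03 and a range from -0.44 to 0.25. Over all genes the median was 0.04. The standard deviation across genes was 0.14 for the standard proteins and 1.18 for all genes tested.

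How large a change the arrays allow follows from the intervals. The median standard error of a standard gene was 0.17, and the lowest and highest bounds of the 95% intervals were -0.92 and 0.71. All 76 intervals therefore lay inside a 2-fold change in either direction, while 55.9% of the intervals of all genes did. A difference of 2-fold or more was estimated for 0 standard genes and 21.5% of all genes. Of the 76 estimates, 53 lay within 0.2 of no difference, near 1 standard error. The standard genes are bright on these arrays. Among the 509 genes at least as bright as the dimmest of them, themselves included, 24.2% passed the threshold, the median difference was -0.06 and the standard deviation was 0.66.

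**Figure D1:**
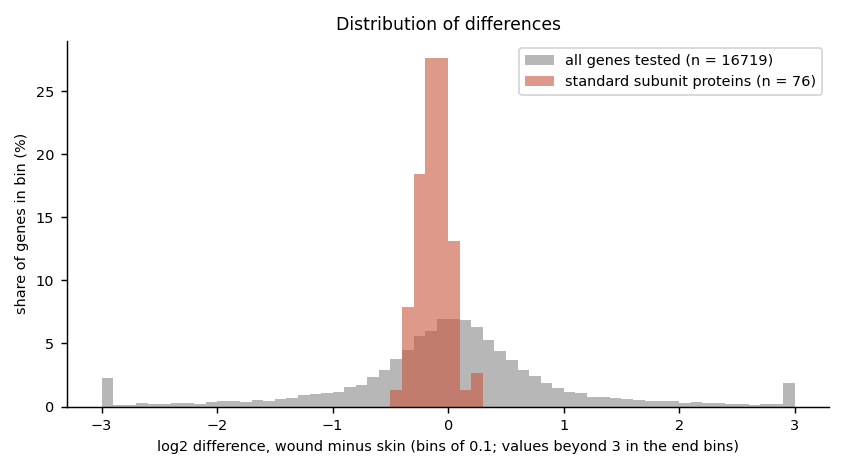
The horizontal axis gives the log2 difference, wound minus skin, in bins of 0.1, and the vertical axis the percentage of genes in each bin. Red marks the 76 standard genes, which lie between -0.44 and 0.25, and grey all 16719 genes tested, with values beyond 3 drawn in the end bins.

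The small shift of the standard genes was not equal in the pairs of arrays. Their median difference was 0.04 in the pair of replicates 1, -0.12 in that of replicates 2 and -0.28 in that of replicates 3. All genes together had medians of 0.04, 0.08 and 0.02 in the same pairs. The 509 genes at least as bright as the dimmest standard gene, the standard genes included, had medians of 0.02, 0.06 and -0.17. Medians of the bright genes without the standard genes were not taken. On design 026655 alone the median was -0.02 for the standard genes and 0.07 for all genes. The standard genes were lowest in the single pair on design 028005, and below all genes in the pair of replicates 2 too. Estimates below 0 were found for 63 of 76 genes, or 82.9%, against 47.1% of all genes and 58.9% of the 509 bright genes. Of the standard genes, 24 were lower in all 3 pairs of arrays, as were 29.2% of all genes, and 1 was higher in all 3, as were 35.3%. For 12 standard genes all wound arrays lay below the skin arrays of their design, which 25.2% of all genes did, and for 1, Rpl41, all lay above, as did 31.8% of all genes.

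**Figure D2:**
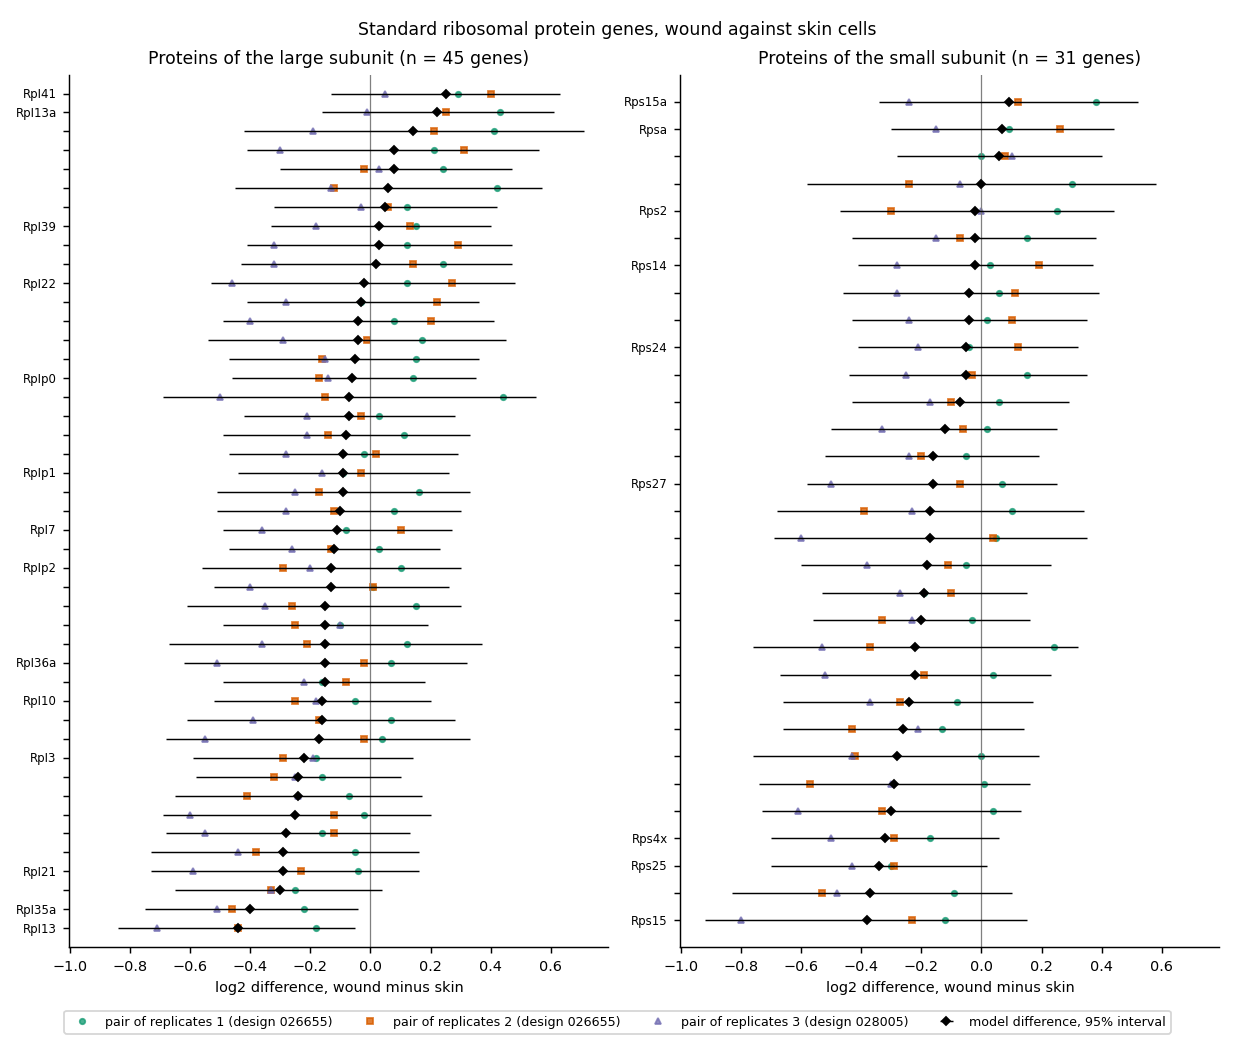
Each line is a standard gene of the large (left, 45 genes) or small subunit (right, 31 genes), and the horizontal axis is its log2 difference, wound minus skin. Diamonds with bars are the model's difference and 95% interval, and coloured symbols are the pairs of arrays. Standard genes that the text names carry their symbol. The triangles of design 028005 lie to the left of most other symbols.

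Large-subunit proteins hold the centre where peptide bonds form and the exit tunnel. Their 45 genes had a median difference of -0.10, ranging from -0.44 to 0.25, and 35 were below 0. Rpl13, chosen after its values were seen as the lowest of all, gave 6.97, 7.01 and 8.79 in skin replicates 1 to 3 and 6.78, 6.57 and 8.08 in the matching wound arrays. Within each design its wound arrays lay below its skin arrays, and the difference was -0.44 ± 0.16 (SE; limma adjusted p = 0.0823). Rpl35a stood next at -0.40 (limma adjusted p = 0.087). At the other end were Rpl41, the shortest of these proteins, at 0.25 (limma adjusted p = 0.273) and Rpl13a, which also has a known role in silencing inflammatory mRNAs, at 0.22 (limma adjusted p = 0.317). None of these 4, all picked for their extreme place, passed the threshold.

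Small-subunit proteins surround the site where codons are read. Their 31 genes had a median of -0.17, with 28 below 0 and a range from -0.38 to 0.09. The lowest was Rps15, at 6.09, 5.74 and 7.35 on the skin arrays and 5.96, 5.52 and 6.54 on the wound arrays. Its largest gap was in the pair of replicates 3, at -0.80, against -0.12 and -0.23 in the others, and the estimate was -0.38 (limma adjusted p = 0.233). Rps15a was highest, at 0.09 (limma adjusted p = 0.732). Rps25, which some viral and cellular mRNAs need for internal initiation, had the lowest adjusted p of the small subunit, 0.13 in limma, with all 3 pairs below 0 and a difference of -0.34.

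The stalk of the large subunit, which recruits elongation factors, is built on Rplp0 and carries the acidic proteins Rplp1 and Rplp2. Their differences were -0.06, -0.09 and -0.13 (limma adjusted p = 0.819, 0.657 and 0.614), and the ratio of Rplp1 to Rplp2 changed by 0.04 ± 0.22 (SD of 3 pairs). Rpsa, a small-subunit protein also known as a laminin receptor precursor, gave 0.07 (limma adjusted p = 0.766). Among the smallest differences of all members were those of Rps2 and Rps14, both at -0.02 (limma adjusted p = 0.957 and 0.933).

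Fau and Rack1 are ribosomal proteins whose names the rule did not take. Fau is made as a fusion to a ubiquitin-like protein, and Rack1 is a scaffold on the small subunit. Their differences were -0.20 and -0.02 (limma adjusted p = 0.483 and 0.929), inside the range of the 76 standard genes.

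The paralogs and retrocopies number 11. Of the 9 tested, 2 were higher, 1 was lower and 6 did not pass, with differences from -1.20 to 1.40 and a median of 0.19, beside -0.44 to 0.25 for the standard genes. These 3 genes, Rps4l, Rpl22l1 and Rpl39l, were the only members called, 3 of the 86 tested, where 34.0% of all genes were. Probe sequences are not used here, so whether a paralog's probe also binds the mRNA of its near-identical standard gene was not tested. A term for the array design was needed for all 3 calls, since signals on design 028005 ran higher for these genes in both groups.

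Rpl39l is a vertebrate paralog of Rpl39, a small protein of the exit tunnel, and is best known from male germ cells. Skin cells gave levels of 3.07, 2.66 and 4.19 in the order of the replicates, and wound cells gave 1.77, 1.57 and 2.98. In every pair the wound array was lower, by similar steps of -1.31, -1.09 and -1.20. The difference was -1.20 ± 0.17 (SE; limma adjusted p = 0.00297), or 2.30-fold lower in wound cells. Rpl39 itself read 6.18, 6.11 and 7.46 in skin and 6.33, 6.24 and 7.28 in wound cells, a difference of 0.03 ± 0.15 (SE; limma adjusted p = 0.888). The ratio of paralog to standard gene thus fell by 1.23 on the log2 scale (SD 0.22, 3 pairs).

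Rps4l is a copy of Rps4x, a protein of the small subunit, and RefSeq lists it as a transcribed pseudogene. Skin arrays gave 1.03, 0.61 and 2.31 and wound arrays 2.69, 2.16 and 3.31. The wound array was higher in every pair, by 1.66, 1.55 and 1.00, and the groups did not overlap within a design. Its difference of 1.40 ± 0.24 (SE; limma adjusted p = 0.00563), or 2.64-fold, was the largest increase among the members. Rps4x had all 3 pairs below 0, at -0.17, -0.29 and -0.50, and a difference of -0.32 (limma adjusted p = 0.163). The ratio of Rps4l to Rps4x rose in all 3 pairs, by 1.72 (SD 0.19) on the log2 scale.

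Rpl22l1 is the paralog of Rpl22, an RNA-binding protein of the large subunit, and the Rpl22 protein is known to restrain its paralog's mRNA. Rpl22l1 read 4.57, 4.53 and 6.32 in skin and 5.30, 5.13 and 6.72 in wound cells. Each wound array lay above the skin arrays of its design, and the difference was 0.58 ± 0.15 (SE; limma adjusted p = 0.0283), or 1.49-fold. The call did not hold when any 1 of the 6 arrays was left out, with adjusted p between 0.0532 and 0.118 and differences of 0.50 to 0.67. Rpl22 by its brightest probe was at -0.02 ± 0.21 (SE; limma adjusted p = 0.94), though its other probe gave a different value, described with the probes.

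Rps27l and Rpl36al, paralogs of Rps27 and Rpl36a, stood above their skin arrays in all 3 pairs without passing the threshold. Rps27l, a p53 target, read 4.14, 4.18 and 5.90 in skin and 4.84, 4.59 and 6.08 in wound cells, a difference of 0.43 ± 0.16 (SE; limma adjusted p = 0.0925). Rpl36al gave 0.37 ± 0.16 (SE; limma adjusted p = 0.128). The standard genes Rps27 and Rpl36a were at -0.16 and -0.15 (limma adjusted p = 0.497 and 0.585). Rpl7l1, a factor of ribosome assembly related to Rpl7, gave 0.19 with pairs of 0.27, -0.15 and 0.45 (limma adjusted p = 0.522), and Rpl7 gave -0.11 (limma adjusted p = 0.617). The retrocopies Rpl32l, Rpl37rt and Rps23rg1 were at -0.11, -0.10 and -0.17, with limma adjusted p of 0.654, 0.694 and 0.452.

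The change of each ratio was also tested by permuting arrays within their design over 7 pairs of genes. With 12 arrangements the smallest two-sided p is 0.167, so no pair could reach 0.05. Rpl39l to Rpl39, Rps4l to Rps4x, Rpl22l1 to Rpl22, Rps27l to Rps27 and Rpl36al to Rpl36a all had that smallest exact permutation p, 0.167 (0.234 after Benjamini-Hochberg adjustment over the 7). The ratio changes of the last 3 were 0.60 (SD 0.27), 0.59 (SD 0.10) and 0.53 (SD 0.12). Rpl7l1 to Rpl7 changed by 0.30 (SD 0.53; exact permutation p = 0.5) and Rplp1 to Rplp2 gave an exact permutation p of 0.833. Of the 7 ratios, 5 moved one way in all 3 pairs, and single genes often did so too, 35.3% of all genes upward and 29.2% downward.

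**Figure D3:**
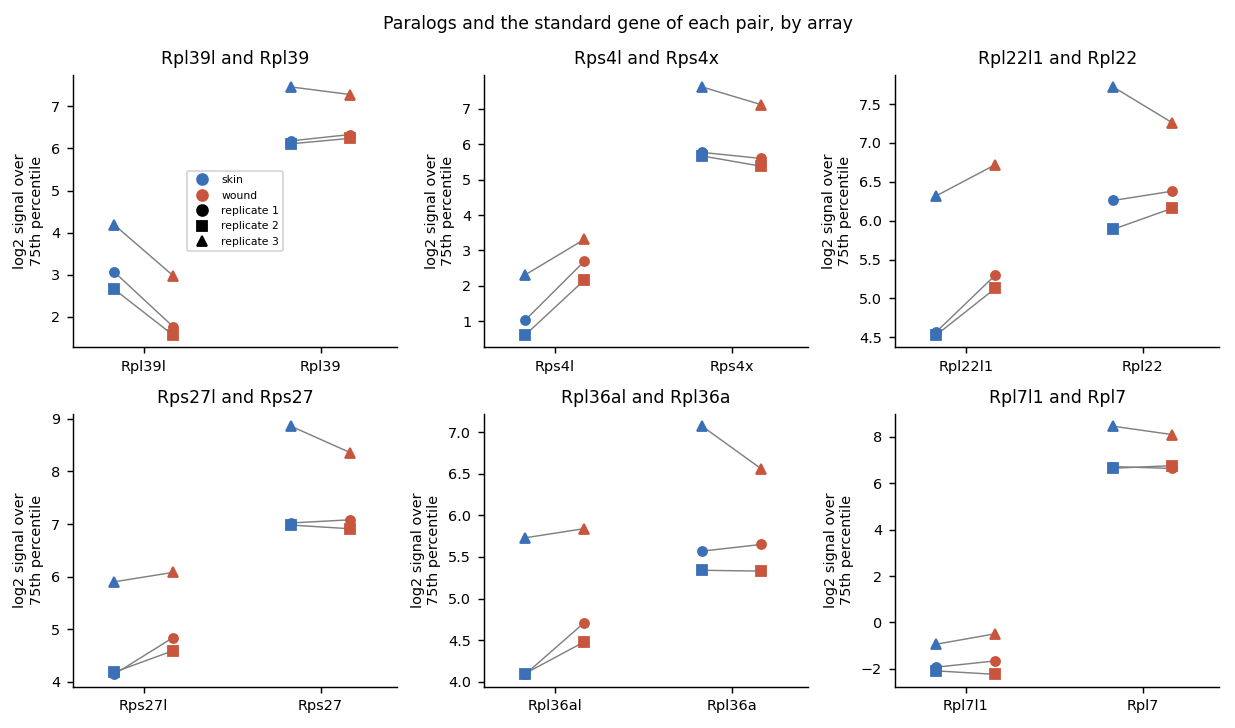
Each panel shows a paralog and its standard gene, with the log2 signal over the array's 75th percentile on the vertical axis for skin (blue) and wound (red) arrays, joined by replicate. Lines fall for Rpl39l and rise for Rps4l, Rpl22l1, Rps27l and Rpl36al in all 3 pairs. Levels of different genes come from different probes and are not comparable.

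Rpl3l and Rpl10l, paralogs known from muscle and from testis, were not well above background on all arrays of either group and were not tested. Rpl10l was detected on 2 skin and 0 wound arrays and Rpl3l on 1 of each. Their standard genes Rpl3 and Rpl10 were at -0.22 and -0.16 (limma adjusted p = 0.306 and 0.449). Rps19bp1 was at 0.12 (limma adjusted p = 0.721).

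The transcription starts of Rpl39l, Rpl22l1 and Rps27l with their standard genes, and of Rps4x, are shown because the standard genes are known by their pyrimidine starts, while copies need not keep the promoter of the parent. Sequences are from RefSeq (GRCm38.p6) and run over 30 bases, 10 before the annotated start and 20 from it. Capitals mark the longest run of a C followed by at least 4 bases C or T that begins within 5 bases of the start.
Rpl39l, chr16:10170218-10170247, plus strand: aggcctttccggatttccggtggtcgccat
Rpl39, chrX:37085203-37085232, minus strand: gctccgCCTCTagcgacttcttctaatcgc
Rpl22l1, chr3:28805498-28805527, plus strand: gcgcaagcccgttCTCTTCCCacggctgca
Rpl22, chr4:152325716-152325745, plus strand: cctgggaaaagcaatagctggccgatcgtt
Rpl22, other start, chr4:152324426-152324455, plus strand: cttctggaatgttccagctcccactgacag
Rps27l, chr9:66946076-66946105, plus strand: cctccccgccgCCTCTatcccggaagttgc
Rps27l, other start, chr9:66946403-66946432, plus strand: gggcttcagggtcactaacgggcctcgcag
Rps27, chr3:90213629-90213658, minus strand: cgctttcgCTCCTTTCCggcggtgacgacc
Rps4x, chrX:102189372-102189401, minus strand: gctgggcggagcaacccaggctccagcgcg

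Such a run began within 5 bases of an annotated start in 27 of the 56 standard genes with an entry, or 48.2%, in 4 of 10 paralogs and retrocopies and in 21.2% of all 27025 genes of the table. At the start base itself a run began in 23.2% of the standard genes, 1 of the 10 copies and 3.01% of all genes. Rpl39, Rpl22l1, Rps27l and Rps27 hold such a run among the genes shown. Annotated starts can lie some bases off the start used in a cell, and a match or its lack describes these letters only.

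Other probes of the members, each tested on its own, gave mostly the same picture. Of 192 member probes tested, 8 passed, 3 as higher and 5 as lower in 7 genes, where 32.0% of all 22737 probes did. In 61 members with more than 1 probe detected on all 6 arrays, the differences of a gene's probes lay a median of 0.07 apart. In 4 genes they lay more than 0.5 apart, and 3 of these, Rpl22, Rps24 and Rpl21, were picked for that spread.

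For Rpl22 the dimmer of its probes gave 3.22, 3.11 and 3.87 in skin and 1.80, 1.64 and 2.75 in wound cells. Every wound array was below every skin array. The difference was -1.34 ± 0.16 (SE; limma adjusted p = 0.00137), or 2.53-fold lower, and stayed between -1.44 and -1.26 when an array was left out, with adjusted p up to 0.0109. Its bright probe, used above, gave -0.02 (limma adjusted p = 0.943), and both are annotated to the same target accession. Whether Rpl22 was lower or near equal thus rests on the probe, and so does the size of the ratio change of Rpl22l1 to it.

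Rps24, a small-subunit gene known for alternative splicing near its end, had 4 probes with 4 target accessions. One gave 7.72, 7.48 and 8.87 in skin and 7.07, 6.84 and 7.88 in wound cells, lower in every pair. Its difference was -0.76 ± 0.17 (SE; limma adjusted p = 0.018), while the others gave -0.08, -0.08 and -0.05. That call was lost without skin replicate 1 (-0.72, adjusted p = 0.0845) or without either array of replicates 3 (-0.64, adjusted p = 0.0815).

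In Rpl21 both dim probes were lower, by -0.91 ± 0.19 and -0.54 ± 0.15 (SE; limma adjusted p = 0.0116 and 0.036), and the bright one gave -0.29 (limma adjusted p = 0.292). The first lost its call without skin replicate 1 (adjusted p = 0.0585) and the second without any array but wound replicate 2 (adjusted p up to 0.132). In all 3 genes no probe used for the gene passed.

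**Figure D4:**
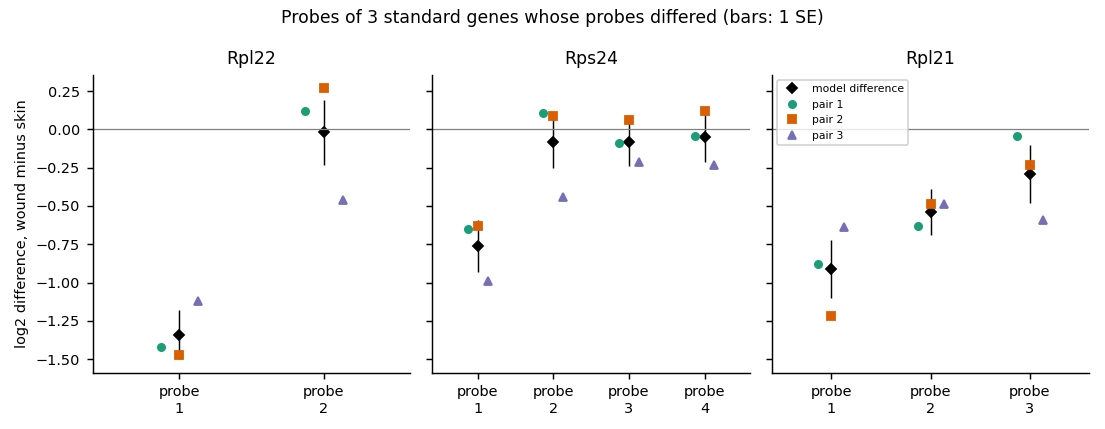
Each panel is a gene and each position a probe, numbered from the lowest difference to the highest. The vertical axis is the log2 difference, wound minus skin, with the model's difference and 1 SE as diamonds with bars and the pairs of arrays as coloured symbols. Probe 1 of Rpl22 lies at -1.34 and probe 2 at -0.02.

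The genes that make and use ribosomes were described by lists, beside 18.5% of all genes past the threshold as higher and 15.6% as lower. Other mRNAs with a terminal oligopyrimidine start, such as Eef1a1 and Eef2, which carry tRNAs in and move the ribosome on, had 0 of 18 higher and 0 lower, with a median of 0.02. Npm1, a nucleolar chaperone of ribosome assembly, had the largest value, 0.54 (limma adjusted p = 0.0644). Of 19 genes of rRNA transcription by RNA polymerase I, 1 was lower and 0 were higher, with a median of -0.17. That gene was Taf1b, part of the promoter selectivity factor, at -0.76 (limma adjusted p = 0.00966, and 0.0546 without skin replicate 1).

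Among 102 genes of rRNA processing and subunit assembly, 3 rose and 7 fell, and the median was -0.07. By the same threshold 18.5% of all genes rose and 15.6% fell. Nmd3, the export adaptor of the large subunit, rose by 0.63, Ddx54 by 0.52 and Wdr36 by 0.49. Nop53 fell by 0.86, the helicase Ddx27 fell by 0.73 and Mdn1, which strips assembly factors from the large subunit, fell by 0.69. Of these 6, Ddx27 alone passed with each array left out in turn (limma adjusted p up to 0.0471). The counts with an array left out were 0 to 2 higher and 1 to 2 lower.

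Of 39 translation initiation factors, 6 rose and 1 fell, with a median of 0.14, where 18.5% of all genes were higher and 15.6% lower. Eif4e2, a cap-binding repressor, rose by 1.51 (limma adjusted p = 0.00465) and Eif2b2, a subunit of the exchange factor of eIF2, by 0.87 (limma adjusted p = 0.00906). Both passed with each array left out. Eif4e, the cap-binding protein, was at 0.77 (limma adjusted p = 0.0168) and the helicase Eif4a2 at -0.77 (limma adjusted p = 0.0131), and these calls were lost without skin replicate 1, among others. Leaving out an array gave 2 to 4 higher and 0 to 1 lower.

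Of 20 elongation, termination and recycling factors, 3 rose and 1 fell, where 18.5% of all genes were higher and 15.6% lower. Gspt2, a release factor paralog, fell by 1.31 (limma adjusted p = 0.00143) and passed with each array left out. Dph1, Eef1e1 and Pelo, at 0.75, 0.61 and 0.60, did not, with 0 to 2 called as higher. Of 22 cytosolic aminoacyl-tRNA synthetases, which charge tRNAs, 4 rose and 0 fell, with a median of 0.23. These counts too stand beside 18.5% and 15.6% of all genes. Gars, for glycine, the most frequent residue of collagen, rose by 1.36 (limma adjusted p = 0.00131) and passed with each array left out. The list had 1 to 2 genes called as higher with an array left out. Cars and Aars, at 0.65 and 0.56, lost their calls without skin replicate 1, among others.

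Mitochondrial ribosomal proteins, which serve the separate ribosome of that organelle, had 3 of 78 higher and 3 lower, with a median of 0.24. All genes had 18.5% higher and 15.6% lower. Mrpl54, Mrpl34 and Mrpl46 were at 0.84, 0.70 and 0.58, and Mrpl49, Mrpl35 and Mrps31 at -0.91, -0.57 and -0.51. Without skin replicate 1, 0 were called as higher and 0 as lower, so none of the 6 calls held there. The test of a difference between these genes and the cytosolic set was not made.

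Regulators of ribosome production went in both directions, with 5 of 39 higher, 5 lower and a median of 0.04. For all genes the shares were 18.5% higher and 15.6% lower. Among inhibitors of mTORC1 signalling, Ddit4 rose by 1.34 (limma adjusted p = 0.00146), Deptor fell by 3.39 (limma adjusted p = 0.000324, with 2 of 3 wound arrays measured) and Sesn1 fell by 1.57 (limma adjusted p = 0.00162). Eif4ebp1, which binds Eif4e and blocks initiation, rose by 1.11, and Chac1, a target of the eIF2 kinase response, by 1.23 (limma adjusted p = 0.0161 for both). Chac1 lost its call without wound replicate 1 or either array of replicates 3. Mycl fell by 1.92 (limma adjusted p = 0.00335). Myc, which drives ribosomal genes, was at 0.04 (limma adjusted p = 0.86) and Mtor at -0.27 (limma adjusted p = 0.326).

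Because free ribosomal proteins bind Mdm2 and thereby raise p53, its targets were read too. Of 20, 5 rose and 4 fell, and the median was 0.27. Ddit4l, Plk2 and Mdm2 rose by 1.90, 1.36 and 0.91 (limma adjusted p = 0.000779, 0.00264 and 0.00435). Perp, which is also a desmosome gene of keratinocytes, fell by 6.30 and Gdf15, a stress cytokine, fell by 2.52 (limma adjusted p = 0.000891 and 0.000957). All 5 passed with each array left out. For all genes the shares past the threshold were 18.5% higher and 15.6% lower.

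**Figure D5:**
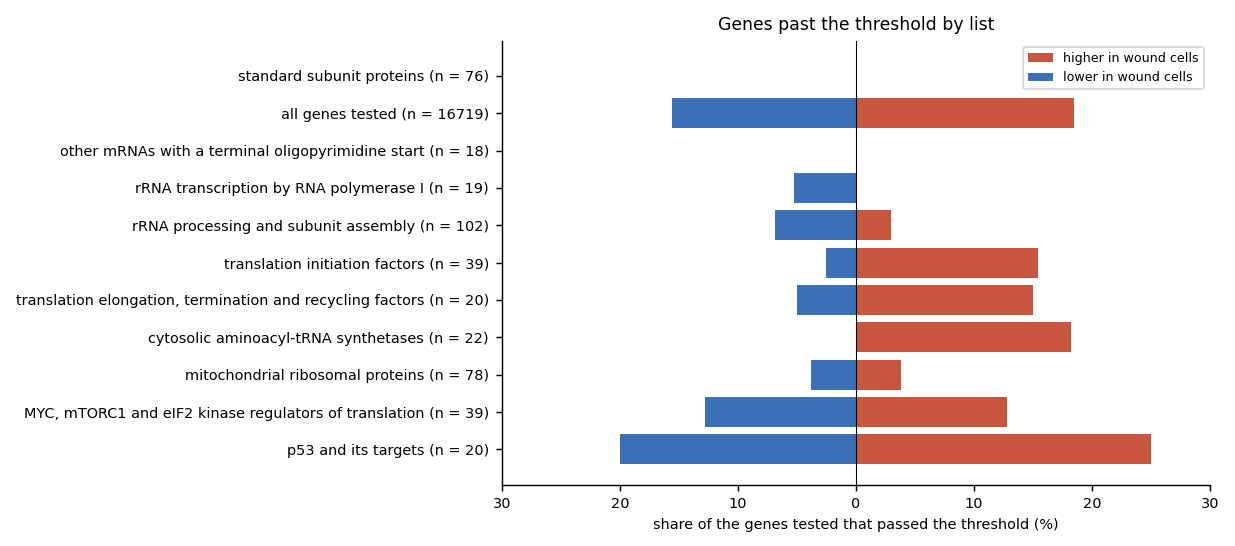
Bars give, for each list, the percentage of its tested genes that passed an adjusted p of 0.05 as higher (right, red) or lower (left, blue) in wound cells. The standard subunit proteins and the other terminal oligopyrimidine mRNAs have no bar, and all genes tested reach 18.5% and 15.6%.

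Marker genes of several cell types differed between the groups beside these values, where 18.5% of all genes were higher and 15.6% lower. Contractile markers were higher for 8 of 8 genes (summed linear signal 37.0 to 105 in skin and 260 to 714 in wound cells). Acta2, the gene behind the sort, is among them. Mural cell markers were higher for 7 of 10 (33.6 to 66.9 and 88.8 to 235). Des is counted among both the mural and the skeletal muscle markers. Keratinocyte markers were lower for 7 of 9 (19.0 to 43.2 and 4.36 to 10.5), as were immediate early genes, which respond to cell isolation, for 8 of 12 (437 to 1170 and 204 to 642). Markers of dividing cells were higher for 9 of 12 (18.0 to 49.3 and 28.7 to 72.9). Fibroblast markers had 1 of 10 higher and 2 lower, endothelial markers 4 of 9 higher, and white blood cell markers 2 of 12 higher and 3 lower. Adipocyte and skeletal muscle markers were higher for 3 of 5 tested (summed signal 1.76 to 5.98 in skin and 14.1 to 37.1 in wound cells), and markers of hair follicle, melanocytes and Schwann cells had 1 of 9 higher and 4 lower (1.44 to 6.31 and 2.76 to 4.28). Their part in the values of the ribosomal genes was not tested, and in bulk RNA fewer cells of a type and less RNA per cell cannot be told apart.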

How the data were processed

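Per the file headers, the authors extracted spot intensity values with Feature Extraction 10.7.3.1 from probes designed on build mm9, and per the submitters' processing notes they made a gene table with GeneSpring 14.5. The deposited table was taken as log2, since its differences between arrays matched log2 differences of the scanner values with slopes of 1.00, 1.00 and 0.975 over 16527 genes. It is centred per gene within a design, so its levels were not used. The design text names a human array beside a whole-genome one, while the organism label is mouse, and probes were named as mouse genes through the table and RefSeq names (GRCm38.p6).

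The processed signal was divided by each array's 75th percentile and taken as log2, without control and outlier spots. The brightest probe per gene and design was used, and for 97.0% of genes that was a single probe. Among the 88 members it was a single probe for 80. For the others, Rpl39 and Rps24 among them, the levels on each design come from a different probe. Both designs shared 23044 genes, of which 16719 were well above background on all 3 arrays of a group. They were fitted with limma 3.58.1 (R 4.3.3) on group and array design, with Benjamini-Hochberg adjustment and 6.25 total degrees of freedom, and the fit was tested on simulated data. Slide and scan coincide with the design. The number of arrays limits the precision.

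Members named are those past the threshold, all paralog pairs, the stalk proteins, Rpsa and the 3 smallest differences, and of each list the 3 largest in each direction past it. Extremes and differing probes were added after their values were seen. Some genes under this rule are not reported here. Members and lists were chosen with earlier results of these data known. Normexp was run on the median signal in place of the planned mean signal. Tables and figures were made with Python 3.11.15, pandas 2.3.3 and matplotlib 3.10.9.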

Additional observations from a re-analysis of the deposited data

How the results depend on the processing

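Over the alternatives, Rpl39l stayed between -1.32 and -1.08 and Rps4l between 1.00 and 1.60, and each passed in 17 of 18 tested alternatives. Without a term for the array design 0 members were higher, 0 were lower and 1758 of all genes passed. Rpl22l1 passed in 9 of 18. Leaving out either array of replicates 3 gave the same fit as design 026655 alone, so these alternatives are not separate checks. The count of higher members was 1 at an adjusted p under 0.01, on design 026655 alone and with no filter on dim probes, and 1 to 1 when an array was left out. The count of lower members was 3 with the percentile over detected probes (Rpl13 and Rpl35a added, -0.51 and -0.47), 3 in the authors' deposited table (Rpl21 and Rpl22 added, -0.64 and -0.74), 3 with a gene's probes averaged (the same genes added, -0.58 and -0.68), and 2 with normexp (Rpl35a added, -0.44). It was 1 to 1 when an array was left out. With each probe tested on its own, an alternative chosen after seeing the data, 3 members were higher and 4 lower. The median of the members was -0.27 on design 028005 alone and -0.20 to -0.01 when an array was left out. All genes past the threshold numbered 3190 at an adjusted p under 0.01 and 3749 to 5022 when an array was left out. The sign of Rpl22 changed with the array left out, from -0.19 to 0.19. The labels number only the pairs of replicates 1 and 2, whose deviations correlated at 0.153. With a replicate block, 2 members were higher, 1 was lower and 5595 of all genes passed, and the member calls were the same.

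Limits are the 3 arrays per group, with a single pair on design 028005, and signals that are relative within an array. Of 35 genes named from the other lists, 15 passed with each array left out in turn.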
